A study of Mus musculus with 6 samples.

Results

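Chromatin modifiers and remodelers were examined in the lungs of hypoxic mice with and without NFAT5 in their smooth muscle cells (SMCs). The genes were taken by symbol and not by any measured value. They are those whose symbols begin with Kmt, Kdm, Chd, Smarc, Arid, Setd or Nsd, together with Tet1 to Tet3, which gave 73 of the 25428 probe sets on the array (1 probe set per gene). The pattern also matched Kdm5c, Kdm5d, Kdm6a and Chdh, which the rule leaves out. It took in Nsdhl too, a sterol synthesis enzyme that is no chromatin gene and is counted among the 73 but described apart.

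RNA from lung lobes was hybridised to whole-genome arrays, 1 array per mouse, after 7 days at 10% oxygen. The control group was made up of 3 Nfat5fl/fl mice and the second group of 3 Nfat5(SMC)-/- mice, numbered 1, 2 and 4 in each group by the labels. By the study's methods, floxed mice were crossed with the SM-MHC-CreERT2 line, in which the smooth muscle myosin heavy chain promoter drives a Cre recombinase that tamoxifen switches on and which only males carry. Males were 10 to 12 weeks old at induction, received tamoxifen (Nfat5(SMC)-/-) or its solvent miglyol (Nfat5fl/fl) for 5 days, and recovered for 2 to 3 weeks. Tamoxifen and the loss of NFAT5 therefore cannot be told apart in these groups, and as all 6 lungs were hypoxic the effect of oxygen itself is not part of the comparison. The comparison asks how chromatin genes of the hypoxic lung differ when NFAT5 is deleted in SMCs, which are a small share of a lobe. In such bulk samples fewer cells of a type and less RNA per cell cannot be told apart.

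DNA in the nucleus is wound around histones, and the enzymes studied here decide how tightly it is packed and how it is marked. Writers such as the KMT2, SETD and NSD proteins put methyl groups on histone lysines, the KDM enzymes remove them, and the TET enzymes oxidise methylated cytosine in DNA. The SMARC and CHD proteins and some of the ARID proteins form or power complexes that slide and evict nucleosomes with ATP. The JmjC demethylases and the TET enzymes need molecular oxygen, iron and 2-oxoglutarate, and several of their genes are known targets of hypoxia-inducible factors in cultured cells, which is why they are often studied in low oxygen.

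Levels are given on the log2 scale of the deposited values and differences are Nfat5(SMC)-/- minus Nfat5fl/fl, so that a difference of -1 is a halving. They were tested with limma and adjusted over all probe sets by the Benjamini-Hochberg method at 0.05. The deleted gene, Nfat5, read 9.18, 8.62 and 9.21 in controls 1, 2 and 4, beside 8.23, 7.72 and 7.89 in the Nfat5(SMC)-/- group. The groups did not overlap (difference -1.06, limma adjusted p = 0.0707), but no source used here says where on the gene the probes lie, so the probe set need not report the deleted exon. Correlations of each array with its own group ranged from 0.970 to 0.991 and with the other group from 0.960 to 0.983. On the first principal component, which held 49.6% of the variance, Nfat5(SMC)-/- mouse 1 lay at 55.8 and the other 5 lungs between -21.6 and 3.57. Defining markers of alveolar, airway, endothelial and smooth muscle cells were all above the lower quartile of the table. The listed markers of immune, fat and heart muscle cells were above it too, so this threshold does not set lung apart. All 7 alveolar type 2 markers reached at least 10.2 in the higher group mean, beside a median level of 4.96 for the table. The summed level of 6 endothelial markers was 13.79 to 13.94 in Nfat5fl/fl and 13.52 to 13.72 in Nfat5(SMC)-/- lungs, with 4 of 6 lower and 0 past the test. Of 5 ciliated cell markers 4 were lower and 1 passed, and of 4 B cell markers 4 were higher with a median of 0.62 and 0 passed. Adipocyte markers differed between the groups, with 10 of 10 higher and 3 of 10 past the test in Nfat5(SMC)-/- lungs, and their summed level ranged from 9.88 to 10.55 in Nfat5fl/fl and from 11.98 to 12.83 in Nfat5(SMC)-/- lungs. For brown adipocyte markers the ranges were 7.40 to 9.31 and 9.54 to 10.31, with 5 of 6 higher and 0 past the test. The part of these differences in the results below was not tested.

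Of the 73 genes, 3 passed the test, and all 3 were lower in Nfat5(SMC)-/- lungs. They were Tet2, which starts the removal of DNA methylation, and Arid4a and Arid4b, a pair of related subunits of the Sin3 histone deacetylase complex. That is 4.11% of the genes, while 0.818% of all probe sets passed in either direction, 0.558% lower and 0.26% higher. At an unadjusted p under 0.05, 26 genes (35.6%) were lower and only Kdm4b (1.37%) higher, against 11.1% and 8.19% of all probe sets. The 3 lungs of each group did not overlap for 26 genes in the lower direction (35.6%) and for 2 in the higher direction (2.74%), against 15.0% and 11.8% of all probe sets, and 45 genes overlapped. The median difference of the 73 genes was -0.13, with 48 lower and 25 higher, beside -0.00081 for all probe sets.

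Long genes were lower in general, so this background has to be narrowed. The genes here are long, with a median genomic span (introns included) of 62.4 kb beside 14.9 kb for all probe sets, and 69 of 73 lie above the median level of the table. Among the 3040 probe sets above that level whose span lies between the quartiles of these genes (31.8 to 86.1 kb), 65.9% were lower, the median difference was -0.14, 27.4% were lower at an unadjusted p under 0.05, 30.3% did not overlap in the lower direction and 1.64% passed the test as lower. In the higher direction 8.59% were at an unadjusted p under 0.05 and 9.31% did not overlap. The share of chromatin genes that were lower (65.8%) and their median were thus close to those of expressed genes of like span, with a smaller share in the higher direction (1.37% and 2.74%), and these shares were not tested against each other. What follows concerns the differences among them, from -1.15 for Tet2 to 0.54 for Kdm4b, with quartiles of -0.44 and 0.055. The expressed genes of like span ranged from -1.44 to 2.22, with quartiles of -0.34 and 0.083. Counts in the small groups below are to be read beside these background values.

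**Figure D1:**
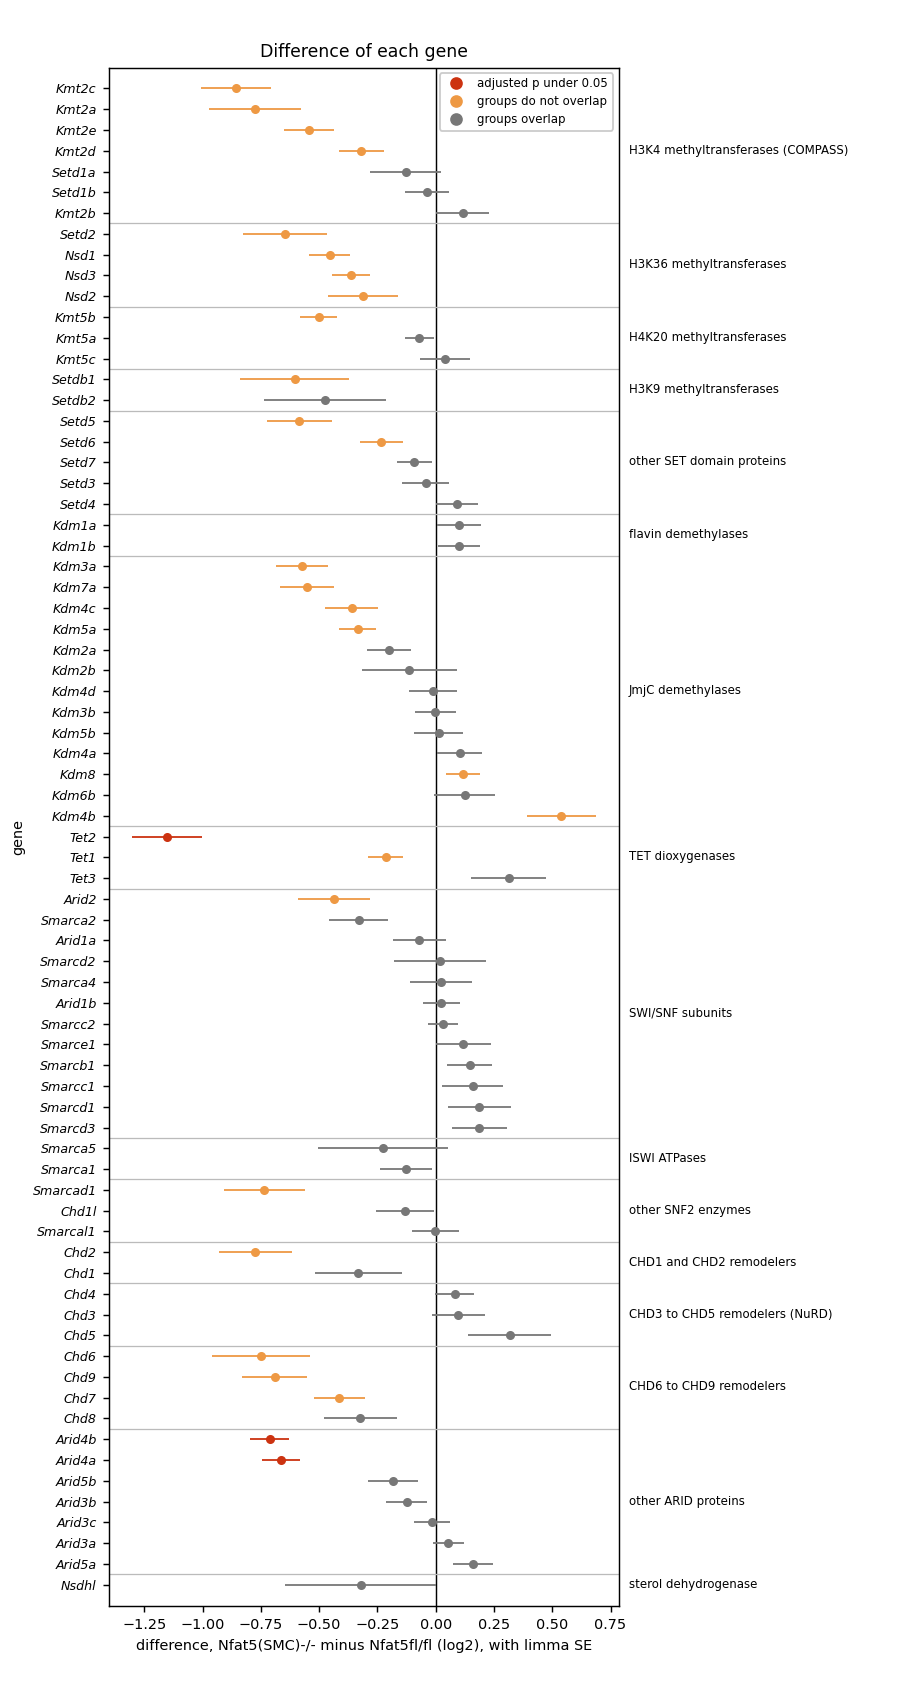
Difference of each of the 73 genes (x axis, log2, Nfat5(SMC)-/- minus Nfat5fl/fl; bars are the limma standard error, n = 3 lungs a group), ordered by role on the y axis. Red points are the 3 genes with an adjusted p under 0.05 (Tet2, Arid4a, Arid4b), orange points the genes whose groups do not overlap, and grey points the rest; the median of the SWI/SNF subunits is 0.027 while all H3K36 methyltransferases lie below it.

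Tet2, one of the enzymes that act on methylated DNA, had the widest difference of the set. Mammals have 3 TET enzymes, which catalyse the same oxidation of 5-methylcytosine, and in these lungs their transcripts gave different values. Tet2 was at 8.15, 7.65 and 7.91 in controls (always in the order of mice 1, 2 and 4), beside 6.92, 6.59 and 6.74 in Nfat5(SMC)-/- lungs. Every Nfat5(SMC)-/- lung was below every control, and the difference of -1.15 (SE 0.15, limma adjusted p = 0.0435) was a 2.22-fold lower level, the lowest of all 73 differences. Tet1 gave 5.05, 5.18 and 5.11 in controls and 4.99, 4.86 and 4.84 in Nfat5(SMC)-/- lungs. Its groups were also apart, but by a narrow margin and near the median level of the table (4.96), and it did not pass (difference -0.21, adjusted p = 0.200). Tet3 gave 7.73, 7.79 and 7.69 in controls and 8.34, 7.71 and 8.10 in Nfat5(SMC)-/- lungs. Here mice 1 and 4 without NFAT5 in SMCs were above all controls and mouse 2 was within their range (difference 0.31, adjusted p = 0.353; 0.17 without mouse 1).

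Because the difference between 2 genes is taken within each lung, a shift shared by the genes of a lung drops out of it. Tet2 minus Tet3 was 0.42, -0.14 and 0.22 in the control lungs and -1.42, -1.12 and -1.35 in the Nfat5(SMC)-/- lungs. The balance between the 2 transcripts thus differed by -1.46 (SE 0.19) with no overlap. An exact two-sided permutation test of 3 against 3 lungs gave p = 0.1, which is the smallest this design allows, and 0.257 after adjustment over the 18 pairs of related genes that were compared. The contrast of Tet1 with Tet3 had the same sign, -0.53 (SE 0.16), also with no overlap and the same p. Tet1, Tet2 and Tet3 span 82.9, 81.5 and 94.8 kb, which are close to one another, and after a correction of every array for span the Tet2 to Tet3 contrast was -1.47.

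Promoters of Tet2 and Arid4b, which passed the test, and of Tet3, the relative that contrasts with Tet2, are shown because both the NFAT family and hypoxia-inducible factors have short DNA motifs that can be read directly. The windows run from 250 bases before to 50 after the start of the transcript, in the 5′ to 3′ direction of the gene, and come from RefSeq on the assembly GRCm38.p6. Capitals mark TGGAAA or its reverse TTTCCA, the core that NFAT proteins bind, and ACGTG or its reverse CACGT, the core of the hypoxia response element. The Tet2 window lies at chr3:133544341-133544640 on the minus strand, that of Tet3 at chr6:83441629-83441928 on the minus strand, and that of Arid4b at chr13:14063534-14063833 on the plus strand.
Tet2: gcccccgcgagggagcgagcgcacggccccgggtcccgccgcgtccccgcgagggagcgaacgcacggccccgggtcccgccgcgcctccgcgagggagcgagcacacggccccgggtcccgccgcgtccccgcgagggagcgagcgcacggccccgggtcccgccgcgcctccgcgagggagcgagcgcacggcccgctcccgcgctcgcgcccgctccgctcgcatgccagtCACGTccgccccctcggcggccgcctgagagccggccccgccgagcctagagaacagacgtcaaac
Tet3: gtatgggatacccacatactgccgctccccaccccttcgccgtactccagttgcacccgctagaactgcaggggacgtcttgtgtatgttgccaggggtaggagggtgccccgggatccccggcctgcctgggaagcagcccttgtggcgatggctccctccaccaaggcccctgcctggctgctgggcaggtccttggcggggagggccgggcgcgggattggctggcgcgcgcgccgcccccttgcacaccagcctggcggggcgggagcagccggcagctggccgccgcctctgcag
Arid4b: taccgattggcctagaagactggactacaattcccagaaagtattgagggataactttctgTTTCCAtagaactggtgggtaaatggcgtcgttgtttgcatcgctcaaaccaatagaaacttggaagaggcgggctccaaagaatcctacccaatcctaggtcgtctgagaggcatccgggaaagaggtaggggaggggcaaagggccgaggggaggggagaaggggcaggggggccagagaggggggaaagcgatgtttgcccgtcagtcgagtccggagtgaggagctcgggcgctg
The Tet2 window has 57 CpG dinucleotides, the sites at which DNA is methylated, and holds 1 hypoxia response core that begins at position -16 from the start. The Tet3 window has 22 CpG and neither motif. In the Arid4b window there are 14 CpG and 1 NFAT-type core at position -189. Over the 54 genes of the set that the promoter table holds (70 windows), TGGAAA in either orientation was found in 15.7% of windows, against 17.0% of the windows of genes above the median level and 21.4% of all 32851 windows. ACGTG in either orientation was found in 10.0% of them, against 24.5% and 19.6%. The motifs overlapped each other in 0 of the 70 windows, and the median number of CpG was 26, beside 20 for genes above the median level and 7 for all windows. These are counts of letters and not of bound sites.

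**Figure D2:**
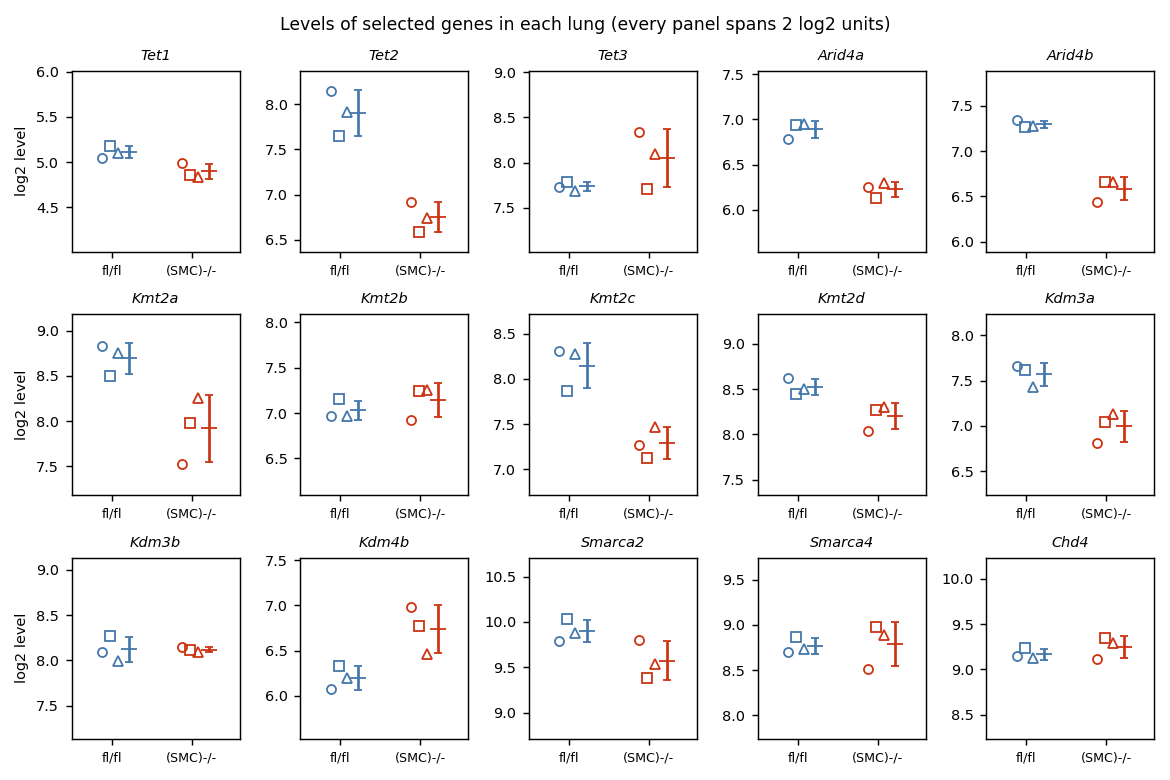
Level of 15 of the genes in each lung (y axis, log2; every panel spans 2 log2 units; blue, Nfat5fl/fl; red, Nfat5(SMC)-/-; circle, square and triangle are mice 1, 2 and 4; the bar is the mean ± SD, n = 3). Tet2, Arid4a and Arid4b are separated by more than their own spread, Tet3 and Kdm4b go the opposite way, and Smarca4, Chd4 and Kdm3b overlap.

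The ARID family shares a DNA-binding domain but splits by partner. ARID4A and ARID4B belong to the Sin3 complex, which removes histone acetylation, and both genes were lower. Other genes of this complex, taken from the further lists below, lay on both sides of the controls. Sin3b (0.24) and Rbbp4 (0.11) were higher, and Sin3a (-0.21), Hdac1 (-0.029), Hdac2 (-0.12) and Rbbp7 (-0.32) were lower. Only Rbbp7 was without overlap, and none of them passed the limma test. Arid4b was at 7.34, 7.27 and 7.28 in controls and at 6.43, 6.66 and 6.66 in Nfat5(SMC)-/- lungs (difference -0.71, SE 0.085, limma adjusted p = 0.0416). Arid4a was at 6.78, 6.94 and 6.95 in controls and at 6.26, 6.13 and 6.29 in Nfat5(SMC)-/- lungs (difference -0.66, SE 0.082, adjusted p = 0.0416). For both genes the gap between the groups was larger than the range within either. The other members of the family that are not part of SWI/SNF lay between -0.18 (Arid5b) and 0.16 (Arid5a), with Arid3a at 0.055, and all overlapped. Of these, Arid5a, an RNA-binding protein that stabilises inflammatory transcripts, gave 5.29, 5.46 and 5.27 in controls and 5.50, 5.59 and 5.40 in Nfat5(SMC)-/- lungs.

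All 3 passing genes lost the call when any 1 of 5 lungs was left out, with adjusted p up to 0.228, and kept it without Nfat5(SMC)-/- mouse 1 (0.0337 for Tet2, 0.0348 for Arid4a and 0.0298 for Arid4b). Their differences stayed between -1.28 and -1.03 for Tet2, -0.72 and -0.61 for Arid4a and -0.75 and -0.64 for Arid4b whichever lung was left out. After correction for gene span the differences were -1.02, -0.53 and -0.56, with adjusted p of 0.0634, 0.0755 and 0.0538.

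Histone H3 lysine 4 is methylated by the COMPASS enzymes. KMT2A and KMT2B act mainly at promoters, KMT2C and KMT2D mark enhancers, and SETD1A and SETD1B are responsible for most trimethylation. KMT2E is related in sequence but is not known to be an active methyltransferase. Of the 7 genes, 6 were lower, but 0 passed the limma test (4 at an unadjusted p under 0.05). For 4 (57.1%) the groups did not overlap, all in the lower direction. That share is 15.0% over all probe sets and 30.3% over brighter ones of like span to the 73 genes. Kmt2c was at 8.30, 7.86 and 8.27 in controls and at 7.27, 7.13 and 7.47 in Nfat5(SMC)-/- lungs (difference -0.86, SE 0.15, adjusted p = 0.0622). Kmt2a gave 8.83, 8.50 and 8.75 against 7.53, 7.98 and 8.26 (difference -0.77, adjusted p = 0.110), and Kmt2e 9.99, 9.86 and 9.95 against 9.27, 9.30 and 9.60 (difference -0.54, adjusted p = 0.0730). For Kmt2a the lungs without NFAT5 in SMCs were far apart from one another, with mouse 1 lowest, whereas for Kmt2c mouse 2 was lowest. Kmt2d differed by -0.32 with no overlap (adjusted p = 0.155), and Setd1a, Setd1b and Kmt2b overlapped at -0.13, -0.037 and 0.12.

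Within each of the KMT2 pairs the contrast separated the groups. Kmt2a minus Kmt2b was 1.87, 1.35 and 1.79 in controls and 0.60, 0.73 and 1.00 in Nfat5(SMC)-/- lungs, a contrast of -0.89 (SE 0.20). For Kmt2c minus Kmt2d it was -0.54 (SE 0.16). Neither contrast overlapped between the groups (exact p = 0.1 each, adjusted p = 0.257). In both pairs the gene with the lower difference is the longer, 78.0 kb for Kmt2a and 20.2 kb for Kmt2b, 227.1 kb for Kmt2c and 42.4 kb for Kmt2d, and after the span correction the contrasts were -0.76 and -0.44, again with no overlap. Setd1a and Setd1b, of similar span, did not separate (contrast -0.092, SE 0.18, exact p = 0.8).

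Among the 73 genes, the 4 taken as writers of histone H3 lysine 36 methylation were all lower, and each of them without overlap. The share without overlap in the lower direction is 15.0% over all probe sets and 30.3% over brighter ones of like span to the 73 genes. With a median span of 97.3 kb the 4 writers are longer than those. NSD1, NSD2 and NSD3 place the dimethyl mark, and SETD2 alone places the trimethyl mark on transcribed gene bodies. Nsd1 was at 8.83, 8.69 and 8.83 in controls and at 8.24, 8.27 and 8.48 in Nfat5(SMC)-/- lungs (difference -0.45, adjusted p = 0.0719). Setd2 was at 8.53, 8.16 and 8.26 against 8.0, 7.36 and 7.64 (difference -0.65, adjusted p = 0.133). Mouse 1 was the highest of the Nfat5(SMC)-/- lungs for Setd2, and without it the gene passed (difference -0.81, adjusted p = 0.0466). Nsd3 differed by -0.36 (adjusted p = 0.0900) and Nsd2 by -0.31 (adjusted p = 0.321), or by -0.15 without Nfat5fl/fl mouse 1, which was at 7.77 beside 7.24 and 7.34 in the other controls. The median of the group was -0.41, and -0.26 after the span correction.

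Among the writers of lysine 20 of histone H4, Kmt5b, which makes the di- and trimethyl marks, was lower by -0.50 (SE 0.079, adjusted p = 0.0558), with 8.04, 8.07 and 8.03 in controls and 7.53, 7.43 and 7.67 in Nfat5(SMC)-/- lungs. The controls lay within a few hundredths of one another and the other lungs clearly below. Without Nfat5(SMC)-/- mouse 1 it passed at 0.0472. Kmt5c, its close relative, and Kmt5a, which makes the monomethyl mark, overlapped at 0.040 and -0.070. The lysine 9 writers Setdb1 and Setdb2, which silence repeats, differed by -0.60 (adjusted p = 0.233) and -0.47 (adjusted p = 0.386). Setdb1 was at 5.36 in Nfat5(SMC)-/- mouse 1 but at 6.19 in both mice 2 and 4, against 6.40, 6.61 and 6.54 in controls. Its groups did not overlap, mouse 1 lay furthest down, and the difference was -0.33 without that lung. Setdb2 was at 5.67 in control mouse 1 and at 4.73 and 4.87 in mice 2 and 4, which overlapped the 4.50, 4.48 and 4.86 of the Nfat5(SMC)-/- lungs (-0.18 without control mouse 1).

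Of the remaining SET domain proteins, Setd5, which is associated with the HDAC3 and NCoR complex, was at 8.61, 8.33 and 8.52 in controls and at 7.72, 7.82 and 8.16 in Nfat5(SMC)-/- lungs (difference -0.58, adjusted p = 0.0969). Setd6, which methylates the NF-kB subunit RelA, was lower without overlap (-0.23, adjusted p = 0.249). Its span of 5.87 kb is the shortest of the set. Setd3, the actin histidine methyltransferase, Setd4 and Setd7 overlapped, between -0.092 and 0.093.

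**Figure D3:**
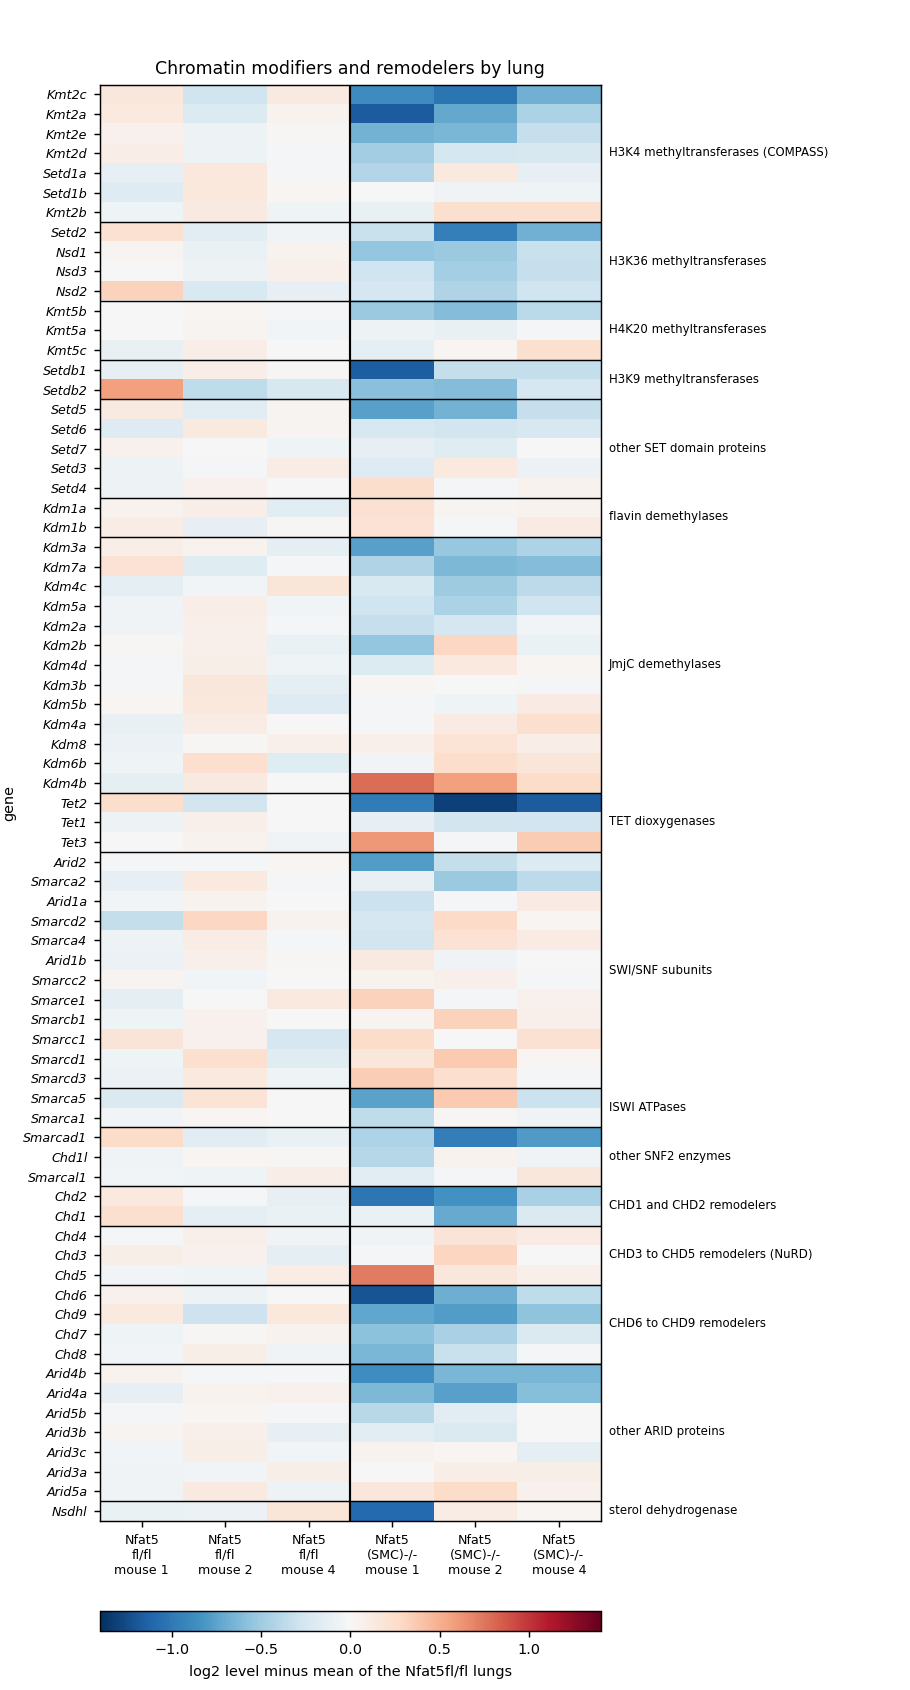
Level of each of the 73 genes (rows, grouped by role) in each lung (columns) as the log2 level minus the mean of the 3 Nfat5fl/fl lungs; blue is lower and red higher. Low values were most frequent in Nfat5(SMC)-/- mouse 1, which was the lowest of the 6 lungs for 29 genes, against 19 for mouse 2 and 2 for mouse 4.

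The demethylases were split. The JmjC enzymes use oxygen as a substrate, and of 13 genes 8 lay below and 5 above the controls. The median was -0.010, and 0 passed the test (4 lower and 1 higher at an unadjusted p under 0.05). Without overlap, 4 were lower (30.8%) and 2 higher (15.4%). These shares are 30.3% and 9.31% over brighter probe sets of like span to the 73 genes, and 15.0% and 11.8% over all probe sets. After the span correction the median was 0.052. Kdm3a, an H3 lysine 9 demethylase known as a hypoxia-induced gene in cultured cells, was at 7.66, 7.62 and 7.43 in controls and at 6.81, 7.04 and 7.14 in Nfat5(SMC)-/- lungs (difference -0.57, SE 0.11, adjusted p = 0.0719). Kdm7a, which acts on lysines 9 and 27, gave 7.41, 7.04 and 7.18 against 6.78, 6.59 and 6.60 (difference -0.55, adjusted p = 0.0791). Kdm5a, an H3 lysine 4 demethylase that has been described as an oxygen sensor, gave 6.87, 7.01 and 6.88 against 6.64, 6.48 and 6.65 (difference -0.33, adjusted p = 0.0995). For each of these every Nfat5(SMC)-/- lung was below every control. Kdm4c was also lower without overlap (-0.36, adjusted p = 0.165).

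Kdm4b went the other way. This H3 lysine 9 demethylase, likewise known to be induced by hypoxia in cultured cells, was at 6.07, 6.33 and 6.20 in controls and at 6.98, 6.78 and 6.46 in Nfat5(SMC)-/- lungs (difference 0.54, SE 0.15, adjusted p = 0.126). Every Nfat5(SMC)-/- lung was above every control, with mouse 1 highest. It was the one gene of the set at an unadjusted p under 0.05 in the higher direction, and with its span of 77.8 kb the difference was 0.66 after the span correction. The other gene apart in the higher direction, Kdm8, was separated by a very narrow gap, 4.92, 5.02 and 5.07 against 5.07, 5.20 and 5.09 (difference 0.12, adjusted p = 0.442). Kdm6b, the H3 lysine 27 demethylase also known as JMJD3, overlapped at 0.13, and the flavin-dependent demethylases Kdm1a and Kdm1b, which need no 2-oxoglutarate, both at 0.10.

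Some close relatives among the demethylases were also apart. Kdm3a minus Kdm3b was -0.43, -0.66 and -0.57 in controls and -1.34, -1.07 and -0.96 in Nfat5(SMC)-/- lungs (contrast -0.57, SE 0.13), and the difference of Kdm3b itself was -0.0010. The contrast of Kdm5a with Kdm5b was -0.35 (SE 0.082), and that of Kdm4a with Kdm4c 0.46 (SE 0.17). Each of them had an exact p of 0.1 and an adjusted p of 0.257, and the Kdm4a to Kdm4c contrast overlapped after the span correction. Kdm2a and Kdm2b, with a contrast of -0.088, and Kdm6b and Kdm7a, with 0.68, overlapped. In all, 7 of the 18 pairs were apart, and 6 of these also after the correction for span. The smallest adjusted p of the exact test over the pairs was 0.257, so no pair passed. Tet3 is shared by the Tet1 and Tet2 contrasts, so the pairs are not independent. How often other pairs of genes are apart in these lungs was not tested.

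**Figure D4:**
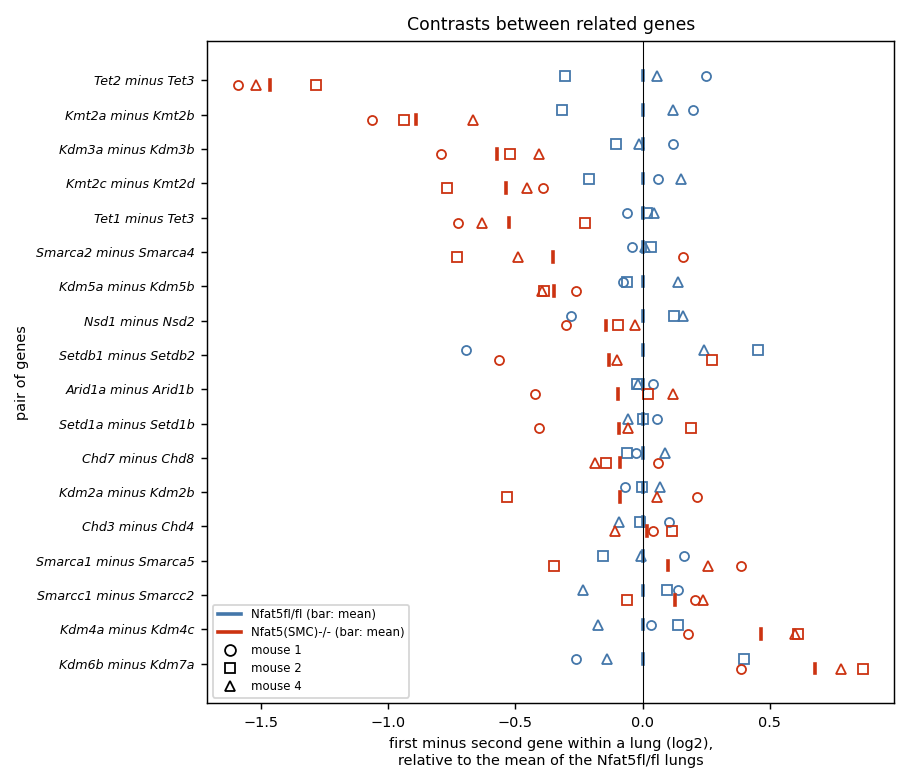
Within-lung difference between the genes of each of 18 pairs (x axis, log2, relative to the mean of the Nfat5fl/fl lungs; blue, Nfat5fl/fl; red, Nfat5(SMC)-/-; symbols are mice 1, 2 and 4 and bars the means). The Tet2 minus Tet3 contrast is the widest at -1.46, and 7 pairs show no overlap between the groups.

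The SWI/SNF complex is a nucleosome remodeler with BRG1 (Smarca4) or BRM (Smarca2) as its motor. Of its 12 subunit genes 9 lay above and 3 below the controls, the median was 0.027 (0.13 after the span correction), and 11 overlapped. At an unadjusted p under 0.05, Arid2 and Smarca2 were lower and 0 genes were higher, and 0 passed the limma test. Smarca4 was at 8.70, 8.87 and 8.73 in controls and at 8.51, 8.97 and 8.88 in Nfat5(SMC)-/- lungs (difference 0.022). Smarca2 gave 9.80, 10.04 and 9.88 against 9.80, 9.38 and 9.53 (difference -0.33, adjusted p = 0.233), so that mouse 1 was as high as the controls and mice 2 and 4 lower. The core and scaffold subunits Smarcb1, Smarcc1, Smarcc2, Smarcd1, Smarcd2, Smarcd3 and Smarce1 lay between 0.018 and 0.19, all with overlap. Arid1a and Arid1b, alternative subunits of the BAF form, differed by -0.071 and 0.024, Arid1b being the longest gene of the set at 353.4 kb. Arid2, which defines the PBAF form, was the one subunit without overlap, with 9.18, 9.18 and 9.23 in controls and 8.41, 8.86 and 9.01 in Nfat5(SMC)-/- lungs (difference -0.44, adjusted p = 0.202). It was -0.26 without Nfat5(SMC)-/- mouse 1 and -0.29 after the span correction. Smarca2 minus Smarca4 was 1.10, 1.17 and 1.15 in controls and 1.30, 0.41 and 0.65 in Nfat5(SMC)-/- lungs, so that mouse 1 was above and mice 2 and 4 were below all controls. The contrast was -0.35 (SE 0.27, exact p = 0.4), and -0.61 without mouse 1.

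CHD6 to CHD9 are long chromodomain helicases, of which CHD7 is mutated in CHARGE syndrome, and all 4 were lower with a median of -0.55 (-0.39 after the span correction), though 0 passed the limma test (3 at an unadjusted p under 0.05). Chd6 was at 7.72, 7.58 and 7.66 in controls and at 6.45, 6.97 and 7.30 in Nfat5(SMC)-/- lungs (difference -0.75, adjusted p = 0.132). Chd9 gave 7.40, 6.97 and 7.41 against 6.53, 6.48 and 6.70 (difference -0.69, adjusted p = 0.0741). In Chd6 the 3 lungs without NFAT5 in SMCs were widely spread, in Chd9 close together. Chd7 differed by -0.41 without overlap (adjusted p = 0.115) and Chd8 by -0.32 with overlap (adjusted p = 0.331; -0.17 without Nfat5(SMC)-/- mouse 1). Chd2, which loads histone variant H3.3 at active genes, was at 7.62, 7.46 and 7.37 in controls and at 6.47, 6.63 and 7.03 in Nfat5(SMC)-/- lungs (difference -0.77, adjusted p = 0.0741). Chd1 overlapped (-0.33, adjusted p = 0.393), and was at -0.14 without Nfat5(SMC)-/- mouse 2. Chd3, Chd4 and Chd5, the motors of the NuRD deacetylase complex, were at 0.097, 0.082 and 0.32 and all overlapped. Chd5 was at 5.46 in Nfat5(SMC)-/- mouse 1 beside 4.89 and 4.81 in mice 2 and 4, and at 0.11 without mouse 1. The spans of these genes are shorter, from 26.2 to 51.5 kb, and a difference between the CHD classes was not tested.

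Smarcad1, which helps to restore silent chromatin after replication, was at 7.50, 7.08 and 7.14 in controls and at 6.80, 6.27 and 6.44 in Nfat5(SMC)-/- lungs (difference -0.73, SE 0.17, adjusted p = 0.0969). As for Setd2, mouse 1 was the highest of its group, and without it Smarcad1 passed at 0.0437. The ISWI motors Smarca5 and Smarca1 overlapped at -0.23 and -0.13. Smarca5 ranged from 6.84 in mouse 1 to 7.95 in mouse 2 within the Nfat5(SMC)-/- group, and Nsdhl was likewise at 7.17 in mouse 1 beside 8.37 and 8.28 in mice 2 and 4. Without mouse 1 their differences were 0.033 and 0.066.

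Span and role ran together in these groups. Across the 73 genes Spearman's rho between difference and span was -0.50, beside -0.42 over the 13325 probe sets above the median level that have a span; genes of an array share its RNA and are not independent replicates. The 36 genes above the median span of the set had a median difference of -0.35, with 30 lower and all 3 calls among them. The other 37 had a median of 0.018, with 18 lower and 0 calls. Of the long SWI/SNF genes, Arid1b, Smarcc1 (108.2 kb) and Smarca4 (88.1 kb) lay above the curve of their span, whereas Smarca2 (173.2 kb) and Arid2 (117.9 kb) lay below it. Tet3 and Kdm4b were also above it, and Tet2, Kmt2c, Chd2 and Chd6 below it. With each array corrected for span, the median of the 73 genes was -0.043, with 0 of them past the test (22 at an unadjusted p under 0.05).

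**Figure D5:**
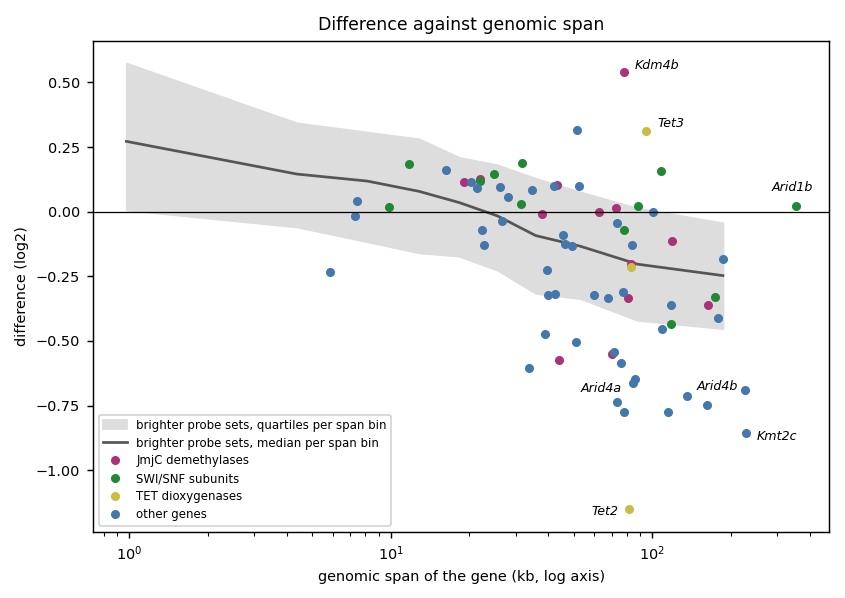
Difference (y axis, log2) against genomic span (x axis, kb, log scale) for the 73 genes (points, coloured by role), over the median (line) and quartiles (band) of the 13325 brighter probe sets in 10 bins of span. The line falls from 0.27 in the shortest to -0.25 in the longest bin, and Tet2 lies below and Kdm4b and Tet3 above the band.

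The lungs did not contribute alike. The mean of the 73 genes, relative to the mean of the 6 lungs, was 0.10, 0.11 and 0.083 in controls, beside -0.17, -0.094 and -0.039 in Nfat5(SMC)-/- lungs. The groups did not overlap, and the Nfat5(SMC)-/- lungs differed more among themselves, with a median SD per gene of 0.17 beside 0.10 in controls (0.14 and 0.090 over all probe sets). Without Nfat5(SMC)-/- mouse 1 the median difference was -0.048, and 6 genes passed as lower, namely Arid4a, Arid4b, Kmt5b, Setd2, Smarcad1 and Tet2. Without any other lung 0 passed (21 to 28 at an unadjusted p under 0.05).

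Genes for proteins that work with these enzymes were listed from textbook complexes. Of 19 further SWI/SNF subunits 12 were higher with a median of 0.12 and 0 passed (2 lower and 2 higher at an unadjusted p under 0.05), Pbrm1 of the PBAF form being at -0.63 (adjusted p = 0.0741). The 12 COMPASS core subunits and partners had a median of -0.089, with 1 call, Men1 (menin), a cofactor of KMT2A and KMT2B. Over all probe sets 0.26% passed as higher and 0.558% as lower. Men1 spans 5.92 kb, a length at which brighter probe sets tended to be higher, and its difference was 0.61 after the span correction. Men1 was higher, at 7.34, 7.43 and 7.35 in controls and 8.15, 8.02 and 7.98 in Nfat5(SMC)-/- lungs (difference 0.68, adjusted p = 0.0416), whereas the KMT2A partner Psip1 was at -0.39 (adjusted p = 0.170). Of 20 NuRD and ISWI partners 14 were lower, with a median of -0.10 and 1 call as lower (5%, beside the 0.558% of all probe sets). This was Rsf1, which pairs with SMARCA5 (difference -0.65, adjusted p = 0.0420). Rsf1 spans 112.9 kb, and its difference was -0.50 after the span correction. Among 10 other JmjC proteins 7 were higher with a median of 0.093 and 0 calls (1 lower and 2 higher at an unadjusted p under 0.05), Jmjd1c being at -0.80 (adjusted p = 0.0580).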

How the data were processed

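Lung RNA of 6 mice was measured on Affymetrix GeneChip Mouse Gene 2.0 ST arrays. The authors deposited log2 levels, obtained with RMA (its version is not stated) and quantile normalisation on a custom chip definition (version 22) that has 1 probe set for each Entrez gene. Quantile normalisation hides any change common to all genes. Of 25428 probe sets, 25269 had 1 symbol, from the platform table or from a gene table of assembly GRCm38.p6, which also gave the genomic span of 25237. All 73 genes were matched, and all were protein-coding.

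All 6 lungs entered 1 limma model (limma 3.58.1, R 4.3.3; lmFit, then eBayes) without covariates. Its two-sided p-values were adjusted across the whole table by the Benjamini-Hochberg method. No filter on level was applied. Pairs of genes were compared within lungs by an exact permutation test (scipy 1.17.1). The procedure was tested on simulated data. The number of arrays limits the precision. The genes, pairs and lists were chosen with earlier results of these data known. The text names Nfat5, genes past the test, in each family the 3 with the smallest p along its median and the 2 against it, and both genes of each pair. From the further lists it gives values for genes past the test. It also gives Pbrm1, Psip1, Jmjd1c and Smc1a, each with the smallest p in the lower direction of its list. Genes with the smallest p in the higher direction of those lists are named only where they passed. Sin3a, Sin3b, Hdac1, Hdac2, Rbbp4 and Rbbp7 are given as genes of the Sin3 complex, chosen after their values were seen. Other genes were named for completeness after their values were seen, and the grouping by role was written after the data were seen.

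Alternatives were a t-test, other priors, array weights, cyclic loess, filters on level, corrections for span (loess, span of the curve 0.3), a replicate block, lungs left out and, chosen after seeing the data, the set without Nsdhl.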

Additional observations from a re-analysis of the deposited data

How the results depend on the processing

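All probe sets past the test numbered 208, and 3 of the chromatin genes. The counts became 0 and 0 with the methods' t-test (3951 and 23 at an unadjusted p under 0.05), 2 and 0 with a mean-dependent prior, 3263 and 23 with array weights, 1 and 0 with cyclic loess, 33 and 0 above the median level, 41 and 0 with the span correction, 0 and 0 with its curve fitted to brighter genes, and 1452 and 9 with Nfat5(SMC)-/- mouse 1 and Nfat5fl/fl mouse 2 both left out. Leaving out each lung in turn gave 0 to 980 and 0 to 6, the highest without Nfat5(SMC)-/- mouse 1. The cause of these changes was not tested. With the mouse number as a replicate block both counts were 0 (4994 and 26 at an unadjusted p under 0.05). Deviations of same-numbered mice correlated at 0.13, 0.41 and 0.078, and those of other pairings at -0.33 to 0.15. Control mice 2 and 4 correlated best with their own number, and control mouse 1 with mouse 4 of the other group (0.15). The labels number the mice without calling them pairs, so the fit without a block was kept. Whether the numbers are pairs was not tested. The robust prior, the filter at the lower quartile and the set without Nsdhl kept all 3 calls.

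The median of -0.13 was -0.060 with array weights, -0.043 and -0.034 with the 2 span corrections, -0.0041 without both lungs, and -0.18 to -0.048 with 1 lung left out. The number of pairs apart stayed within 1.5 times 7. Of the 57 genes that the naming rule takes, 45 kept their direction under all 17 alternatives, and the others turned under at least 1. The t-test, the other priors, the filters on level and the replicate block leave each difference unchanged and could turn no gene. Only the array weights, cyclic loess, the span corrections and the fits with lungs left out bear on direction. With array weights the differences became 0.011 (Arid1a), -0.028 (Arid1b), 0.15 (Kdm2b), 0.049 (Kdm3b), 0.028 (Setd1a) and 0.055 (Smarca5), and with cyclic loess 0.011 (Kdm3b). With the span correction they became 0.054 (Arid1a), 0.036 (Kdm2b), 0.11 (Kdm3b), -0.023 (Kmt5c) and 0.0024 (Smarca1), and with its curve fitted to brighter genes 0.10 (Arid1a), 0.094 (Kdm2b), 0.15 (Kdm3b), -0.074 (Kmt5c), 0.00015 (Setd1b) and 0.052 (Smarca1). Without both lungs they were 0.066 (Arid1a), 0.14 (Kdm2b), 0.059 (Kdm3b), 0.086 (Setd1a), 0.018 (Setd1b), 0.0042 (Smarca1) and 0.13 (Smarca5). With 1 lung left out they ranged from -0.16 to 0.043 (Arid1a), -0.027 to 0.060 (Arid1b), -0.0015 to 0.15 (Chd3), -0.32 to 0.10 (Kdm2b), -0.065 to 0.076 (Kdm3b), -0.076 to 0.088 (Kdm5b), -0.050 to 0.12 (Kmt5c), -0.26 to 0.012 (Setd1a), -0.13 to 0.035 (Setd1b), -0.070 to 0.16 (Smarca4) and -0.52 to 0.033 (Smarca5). Of the genes named for completeness, Setd3 (-0.13 to 0.026), Smarcd2 (-0.15 to 0.17) and Nsdhl (-0.54 to 0.066) also turned with 1 lung left out, Setd3, Arid5b and Setd7 with a span correction (0.13, 0.053 and 0.023 with the curve of brighter genes), Smarcd2 with both span corrections, and Kdm1b without both lungs (-0.0041).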

Other observations

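Further chromatin genes were described in lists that are not part of the complexes above. Bromodomain proteins, which read acetylated histones, were mostly lower in Nfat5(SMC)-/- lungs: 12 of 14, with a median of -0.56, 9 without overlap in the lower direction (64.3%, beside 15.0% of all probe sets and 30.3% of brighter probe sets of like span to the chromatin genes above) and 1 past limma's test with Benjamini-Hochberg adjustment as lower (7.14%, beside 0.558% and 1.64%), Brwd1. It was at 7.04, 7.12 and 7.07 in Nfat5fl/fl lungs, beside 6.13, 6.42 and 6.46 in Nfat5(SMC)-/- lungs (difference -0.74, adjusted p = 0.0462). Genes of cohesin and its loaders, which hold chromatin loops, and Ctcf had a median of -0.45, with 10 of 11 lower and 0 calls (7 lower at an unadjusted p under 0.05), Smc1a being at -0.39 (adjusted p = 0.0698). Both lists hold long genes, with median spans of 76.8 and 75.6 kb, and after the span correction their medians were -0.42 and -0.31.

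Polycomb genes moved in both directions. Cbx6, which binds the trimethyl mark on lysine 27, rose from 6.64, 6.84 and 6.75 to 7.59, 7.88 and 7.94 (difference 1.06, adjusted p = 0.0416), while Pcgf5 (-0.54, adjusted p = 0.0444) and Asxl2 (-0.88, adjusted p = 0.0474) fell. The list of 28 had a median of -0.13, with 2 past the test as lower (7.14%) and 1 as higher. Over all probe sets these shares are 0.558% and 0.26%. Cbx6 spans 10.4 kb, a length at which brighter probe sets tended to be higher, and its difference was 1.01 after the span correction. Of 15 other histone lysine methyltransferases, 16 acetyltransferases, 20 deacetylases and sirtuins, 9 arginine methyltransferases, 16 genes of DNA methylation and its readers and 17 of the INO80 and SRCAP remodelers, 0 passed limma's test in any list; at an unadjusted p under 0.05, 4, 3, 4, 1, 3 and 2 were lower and 2, 0, 4, 0, 0 and 3 higher. Their medians were -0.077, -0.16, -0.023, 0.060, -0.076 and 0.16. Of all 207 listed genes, 4 passed as lower (1.93%, beside 0.558% of all probe sets) and 2 as higher (beside 0.26% of all probe sets), with a median of -0.076.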
